A study of Mus musculus with 2 samples.

Results

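Signalling by Wnt proteins in the embryonic mouse stomach was described here through 55 genes: 17 Wnt ligands, 10 Frizzled receptors, the co-receptors Lrp5 and Lrp6, the alternative receptors Ror1 and Ror2, 10 secreted antagonists, 4 R-spondins, the R-spondin receptors Lgr4 and Lgr6, the membrane ubiquitin ligases Znrf3 and Rnf43, the feedback gene Axin2, beta-catenin (Ctnnb1) and 4 DNA-binding factors of the LEF and TCF family. The genes were chosen by symbol from their known role, with earlier results of these data known, and all 55 were matched among the 43346 genes of the tables. They were measured by RNA sequencing of total RNA from embryonic stomachs of mouse strain B6NCrl, taken at E14.5, that is, 14.5 days of gestation. The single group held 2 libraries, biological replicates 1 and 2. Per the labels each came from a single stomach of 1 pup, with 10 ng of starting RNA, although the sex they state is pooled male and female. There was no treatment, no second genotype and no second stage, so the comparisons are between genes and between the 2 libraries. With 2 libraries of 1 group no p-value was computed.

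Wnt proteins are secreted lipid-modified ligands that bind Frizzled receptors on nearby cells. With Lrp5 or Lrp6 as co-receptor, binding stops the destruction of beta-catenin, which enters the nucleus and acts with LEF and TCF factors to switch on target genes such as Axin2. Other ligands, Wnt5a among them, act largely through Ror receptors and the cell polarity machinery without beta-catenin. Secreted Frizzled-related proteins (Sfrp) bind Wnt proteins outside the cell, and Dickkopf proteins (Dkk) such as Dkk1 act on the co-receptors. R-spondins strengthen the response by drawing the ligases Znrf3 and Rnf43 away from Frizzled receptors through Lgr receptors. In the developing gut the mesenchyme is a main source of both ligands and antagonists, and dampening of beta-catenin signalling by stomach mesenchyme, in which the factor Barx1 takes part, is a known step in setting stomach against intestine.

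The libraries held 25072242 and 25599910 expected counts, estimated read numbers per gene that need not be whole, of which 23668322 and 23882647 fell on genes. Where a gene had 0 counts, up to 3 were allowed for. All 8 stomach mesenchyme markers (Barx1 at 108 and 94.5 TPM), all 6 epithelial markers and all 3 gastric products were detected, and the lung marker Nkx2-1 had 0 counts in both. The summed level of 8 exocrine pancreas genes was 573 TPM in replicate 1 and 4.83 TPM in replicate 2. All 8 were lower in replicate 2, where Prss2 and Ptf1a were at 0, and 3 of 8 were detected in both. Mesothelial markers summed to 71.9 and 56.6 TPM, and all 3 were lower in replicate 2. Levels are given as TPM, the share of a gene among all transcripts after division by transcript length, and can be compared between genes. Detection required at least TPM 1 in each library.

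Of the 55 members, 45 were detected (81.8%), beside 34.9% of all 43346 genes and 61.8% of 21474 protein-coding genes. Another 2 members passed TPM 1 in replicate 1 only, and 8 were under TPM 1 in both libraries. Of those 8, 3 had 0 counts in both. Most detected members were present at low or middling levels: 16 lay between TPM 1 and 5, 18 between 5 and 20, and 11 at 20 or more. Their median was 9.44 TPM, beside 18.4 TPM over the 13271 detected protein-coding genes. In RNA of whole stomachs, few cells with much of a transcript and many cells with little of it cannot be told apart.

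**Figure D1:**
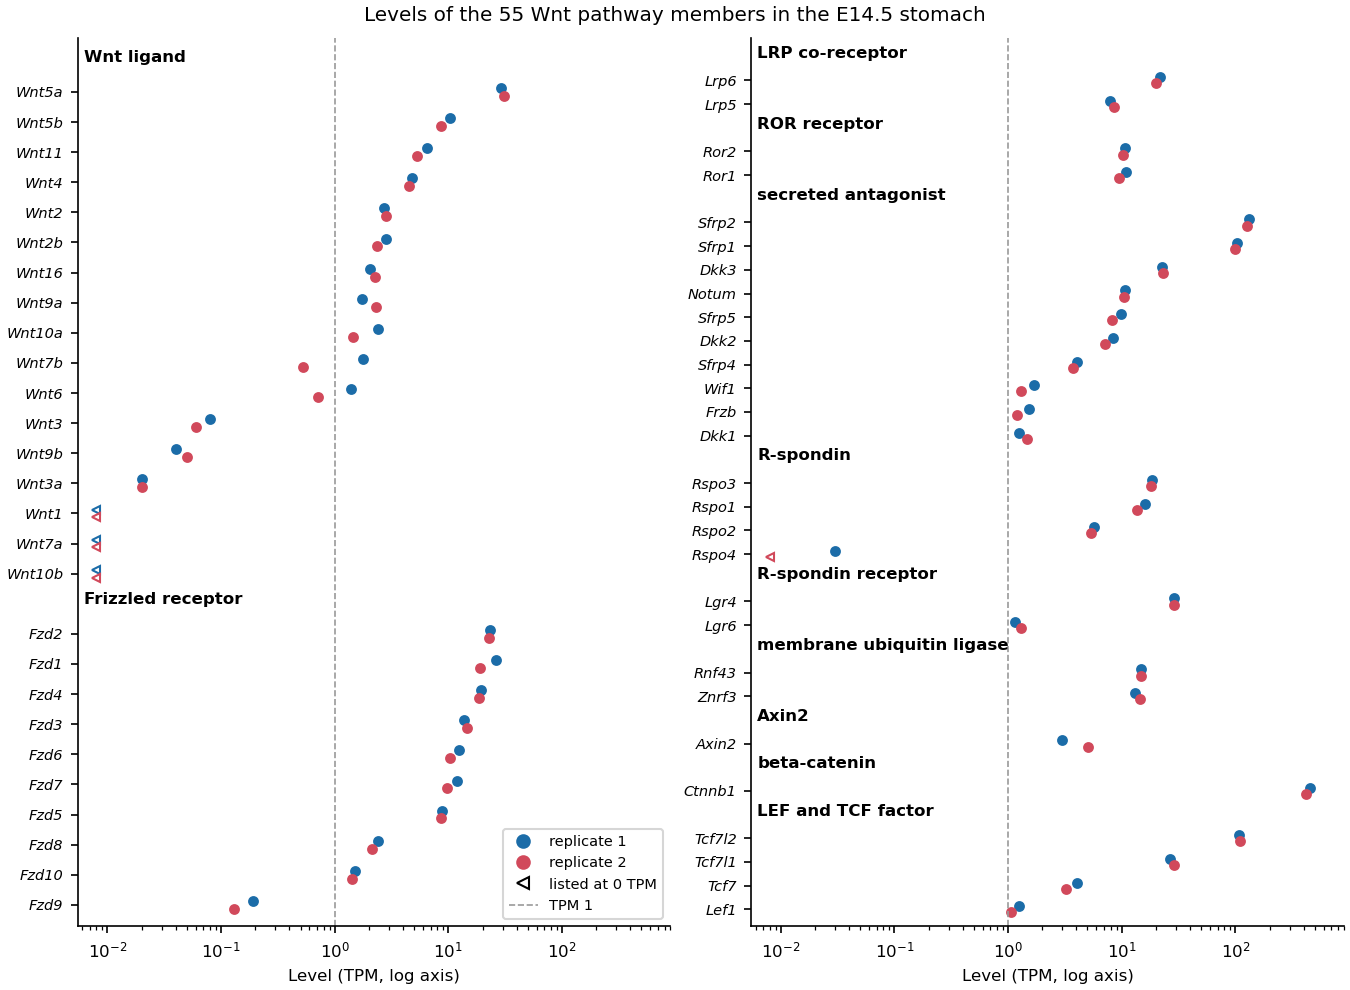
Level of each of the 55 members in TPM (log axis), by class and sorted by mean within the class; blue points are replicate 1, red points replicate 2, open triangles values listed at 0, and the dashed line TPM 1. Ctnnb1, Sfrp2, Tcf7l2 and Sfrp1 lie farthest right, and 8 members lie left of the line in both libraries.

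Among the ligands, 9 of 17 were detected, and Wnt5a was the most abundant. Wnt5a (ENSMUSG00000021994.10, chromosome 14, 28504750 to 28527448 on mm10), a ligand known for directing cell movement and the outgrowth of tissues, was at 29.2 TPM in replicate 1 and 30.9 TPM in replicate 2 (30.1 ± 1.19, SD, n = 2). It made up 44.4% and 49.99% of the summed ligand level. Its close relative Wnt5b was at 10.3 and 8.55 TPM (9.44 ± 1.26), so that these 2 genes together took 60.04% and 63.8% of the sum. Wnt11, which also acts in cell movement, was at 6.50 and 5.31 TPM (5.91 ± 0.842). Wnt4, known from kidney and gonad development, was at 4.80 and 4.48 TPM (4.64 ± 0.226). The 4 highest ligands kept their order without overlap between the values of neighbours. Below them Wnt2 (2.73 and 2.83 TPM) and Wnt2b (2.82 and 2.36 TPM), ligands of gut and lung mesenchyme, overlapped with each other. Wnt16, Wnt9a and Wnt10a lay between 1.46 and 2.39 TPM and overlapped as well.

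The remaining 8 ligands were not detected in both libraries. Wnt6 stood at 1.38 TPM in replicate 1 and 0.71 TPM in replicate 2, on 39 and 24 counts. Wnt7b stood at 1.79 and 0.53 TPM, on 99 and 31 counts. Wnt3, Wnt3a and Wnt9b had between 1 and 4 counts per library and at most 0.08 TPM. Wnt1, Wnt7a and Wnt10b had no count in either library, which allows up to 0.156 TPM for Wnt7a in replicate 1 and less for the others.

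Some Wnt genes lie next to each other in the genome, and the neighbours did not always share a level. Wnt1 and Wnt10b, 11706 bases apart on chromosome 15 and on opposite strands, both had 0 counts. Wnt3 and Wnt9b, 24328 bases apart on chromosome 11, were both at 0.08 TPM or less. The pair Wnt3a and Wnt9a, 16175 bases apart on chromosome 11, was unequal: Wnt3a was at 0.02 TPM in both libraries and Wnt9a at 1.75 and 2.29 TPM. Wnt6 and Wnt10a, which lie in the same direction on chromosome 1 with 6193 bases between them, were at 1.38 and 0.71 TPM and at 2.39 and 1.46 TPM, and both were lower in replicate 2.

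Frizzled receptors were expressed broadly, with 9 of 10 detected and no single leader. Fzd2 was at 23.2 and 22.6 TPM (22.9 ± 0.438, SD, n = 2). Fzd1 was at 26.4 TPM in replicate 1 and 18.9 TPM in replicate 2 (22.7 ± 5.35), the largest spread of the class. Fzd4 was at 19.3 and 18.7 TPM (19.0 ± 0.467). Fzd2 was above Fzd4 in both libraries, while Fzd1 could not be ordered against either: Fzd2 lay within its range, and its lower value lay within the range of Fzd4. Fzd3, a receptor with a role in planar polarity, followed at 13.8 and 14.5 TPM (14.1 ± 0.545). Fzd6, Fzd7 and Fzd5 lay between 8.66 and 12.4 TPM, and Fzd6 and Fzd7 overlapped. Fzd8 and Fzd10 lay between 1.42 and 2.41 TPM, and Fzd9 was listed at 0.19 and 0.13 TPM on 7 and 5 counts. The top pair of the class held 41.4% and 38.7% of its sum, a lower share than the top pair held among the ligands or the antagonists.

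Of the co-receptors that pair with Frizzled proteins, Lrp6 was at 21.9 and 20.1 TPM (20.995 ± 1.22) and Lrp5 at 7.92 and 8.47 TPM (8.20 ± 0.389). Both values of Lrp6 were above both of Lrp5. The receptors Ror1 and Ror2, through which Wnt5a can act, were close to each other. Ror2 stood at 10.7 and 10.3 TPM (10.5 ± 0.297) and Ror1 at 10.9 and 9.56 TPM (10.2 ± 0.969), and their values overlapped.

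Summed over the class, secreted antagonists were far more abundant than ligands, mostly through Sfrp2 and Sfrp1, and all 10 were detected. Sfrp2 (ENSMUSG00000027996.9, chromosome 3, 83766321 to 83774316) was at 131 TPM in replicate 1 and 126 TPM in replicate 2 (129 ± 3.73, SD, n = 2), above 92.3% of detected protein-coding genes. Sfrp1 (ENSMUSG00000031548.7, chromosome 8, 23411502 to 23449632) was at 103 and 98.7 TPM (101.02 ± 3.25). Together these 2 Frizzled-related proteins took 79.6% and 79.9% of the antagonist sum. Dkk3, a divergent Dickkopf relative, was at 22.4 and 23.2 TPM (22.8 ± 0.537). Notum, an enzyme that removes the lipid from Wnt proteins, was at 10.8 and 10.4 TPM (10.6 ± 0.269). These 4 did not overlap with their neighbours in the order. Sfrp5 and Dkk2 lay between 7.10 and 9.88 TPM and overlapped, and Sfrp4 was at 4.08 and 3.74 TPM. Wif1, Frzb and Dkk1 were the lowest of the class, between 1.21 and 1.70 TPM, and overlapped with one another. The antagonist sum was 295 and 281 TPM and the ligand sum 65.9 and 61.9 TPM, a ratio of 4.47 in replicate 1 and 4.55 in replicate 2.

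Of the R-spondins, 3 of 4 were detected. Rspo3 was at 18.6 and 18.3 TPM (18.5 ± 0.226), Rspo1 at 15.9 and 13.5 TPM (14.7 ± 1.70) and Rspo2 at 5.76 and 5.39 TPM (5.58 ± 0.262), in this order without overlap. Rspo4 had 1 count in replicate 1 and 0 in replicate 2. Among their receptors Lgr4 was at 29.1 and 28.8 TPM (28.9 ± 0.198), about the level of Wnt5a. Lgr6, by contrast, was at 1.14 and 1.31 TPM (1.23 ± 0.120), so Lgr4 held 96.2% and 95.6% of the sum of these 2 receptors. The related receptor Lgr5 was not among the members, so these shares leave it out. The ligases that remove Frizzled receptors from the membrane were near each other: Rnf43 stood at 14.8 TPM in both libraries (14.8 ± 0.0071) and Znrf3 at 13.1 and 14.5 TPM (13.8 ± 1.02).

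Inside the cell, beta-catenin was the most abundant member. Ctnnb1 (ENSMUSG00000006932.12, chromosome 9, 120929216 to 120960507) was at 455 and 421 TPM (438 ± 24.1, SD, n = 2), above 98.1% of detected protein-coding genes. Its protein also joins cadherins at cell contacts, so its transcript level is shared between both roles. Of its nuclear partners Tcf7l2 was at 107 and 110 TPM (109 ± 2.503) and Tcf7l1, known mostly as a repressor, at 26.7 and 28.7 TPM (27.7 ± 1.41). Tcf7 was at 4.01 and 3.25 TPM (3.63 ± 0.537) and Lef1 at 1.24 and 1.06 TPM (1.15 ± 0.127). The 4 factors kept this order without overlap, and Tcf7l2 held 77.0% of their sum in each library. Axin2, which is a member of the destruction complex and a widely used readout of beta-catenin activity, was at 3 TPM in replicate 1 and 5.09 TPM in replicate 2 (4.05 ± 1.48), on 154 and 222 counts.

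**Figure D2:**
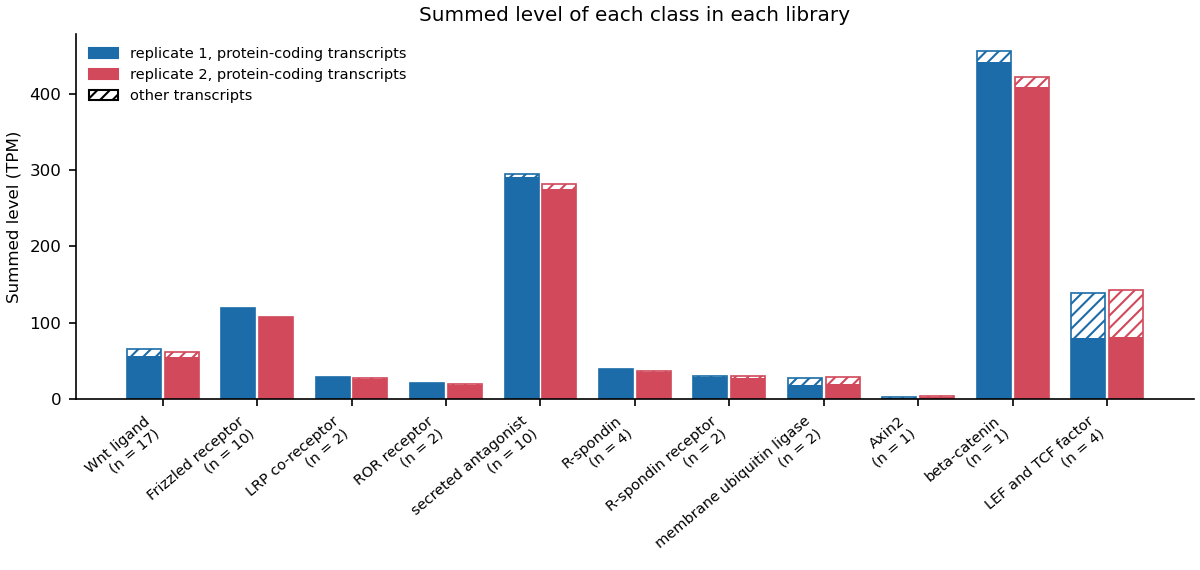
Summed level of each class in TPM (linear axis) in replicate 1 (blue) and replicate 2 (red); the filled part of a bar is protein-coding transcripts and the hatched part all others, and n is the number of genes. Secreted antagonists stand at 295 and 281 TPM against 65.9 and 61.9 TPM for the ligands, and the hatched part is large for the LEF and TCF factors and the ubiquitin ligases.

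The 2 libraries gave near-equal values for most members. Ratios of replicate 2 over replicate 1 were formed from expected counts scaled by TMM library sizes, a scaling that sets the typical gene to no change. Of the 55 members, 37 had a mean count of 100 or more, and at this scaling none of these differed by over 2-fold or by over 1.5-fold. Over all 12761 genes at that count, 38 (0.298%) differed by over 2-fold and 160 (1.25%) by over 1.5-fold. Spike-in counts as library sizes, tried after the data were seen, put 1 member past 1.5-fold, Fzd1 (log2 ratio -0.69, beside 4.38% of all genes). The deposited TPM, also tried then, put Axin2 past it (log2 ratio 0.76, beside 2.12%). TPM is more than a scaling, because it divides by a length estimated in each library. For Axin2, 3 counts stood for 0.0585 TPM in replicate 1 and 0.0688 TPM in replicate 2. The median log2 ratio of the 37 members was -0.01, beside -0.01 over all genes, and their median distance from 0 was 0.11, beside 0.10 over all genes. The split of 16 higher and 21 lower in replicate 2 rested on the scaling and on the measure. With spike-in counts as library sizes 2 were higher and 35 lower, and with DESeq2 size factors 18 and 19. By the deposited TPM the split was 11 and 26. The median of all genes was -0.27 with spike-in sizes and -0.07 with the deposited TPM.

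Axin2 had the highest ratio of these 37 members. It went from 154 to 222 counts, a ratio of 1.42 with a 95% counting interval of 1.15 to 1.76 (log2 ratio 0.50). By estimated transcript counts its longest transcript, Axin2-201, went from 124 to 152. Axin2-203, not annotated as protein coding, went from 23.4 to 50.9, and the short Axin2-204 from 6.37 to 5.75. Wnt9a went from 95 to 132 counts (ratio 1.37, interval 1.04 to 1.80) and Lgr6 from 126 to 154 (ratio 1.20, interval 0.945 to 1.54). These intervals treat each read as independent, which reads amplified by PCR are not, so they can be too narrow even for counting error. They do not cover the difference between embryos. At the other end Fzd1 went from 1811 to 1373 counts, a ratio of 0.747 with an interval of 0.696 to 0.801 (log2 ratio -0.42). Rspo1 went from 466 to 397 counts (ratio 0.839, interval 0.732 to 0.961) and Wnt11 from 179 to 154 (ratio 0.847, interval 0.679 to 1.06). With spike-in scaling Lgr6 stood at a log2 ratio of -0.0022, so its direction depended on the scaling, while Axin2 and Wnt9a stayed above 0 and the other 3 below.

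At lower counts 1 member differed by over 2-fold, which is no more than the share over all genes. Wnt7b, named here after its values were seen, had 99 counts in replicate 1 and 31 in replicate 2, so the level in replicate 1 was 3.24-fold higher (counting interval 2.15 to 5.02). It was the only one of 47 members averaging at least 10 counts that differed by over 2-fold, a filter at which 3.6% of 17510 genes did. The exocrine pancreas genes were higher in replicate 1 too, at 573 against 4.83 TPM. So were the mesothelial markers at 71.9 against 56.6 TPM and the 6 epithelial markers at 1799 against 1575 TPM. Most other marker lists also summed higher in replicate 1, such as smooth muscle at 3292 against 3091 TPM. The erythroid, lung and liver lists summed lower there. These sums are deposited TPM, not scaled by TMM, and the part of any of these tissues in the Wnt7b value was not tested. Wnt6 and Wnt10a were also lower in replicate 2, with ratios of 0.606 (interval 0.349 to 1.03) and 0.643 (interval 0.459 to 0.894).

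**Figure D3:**
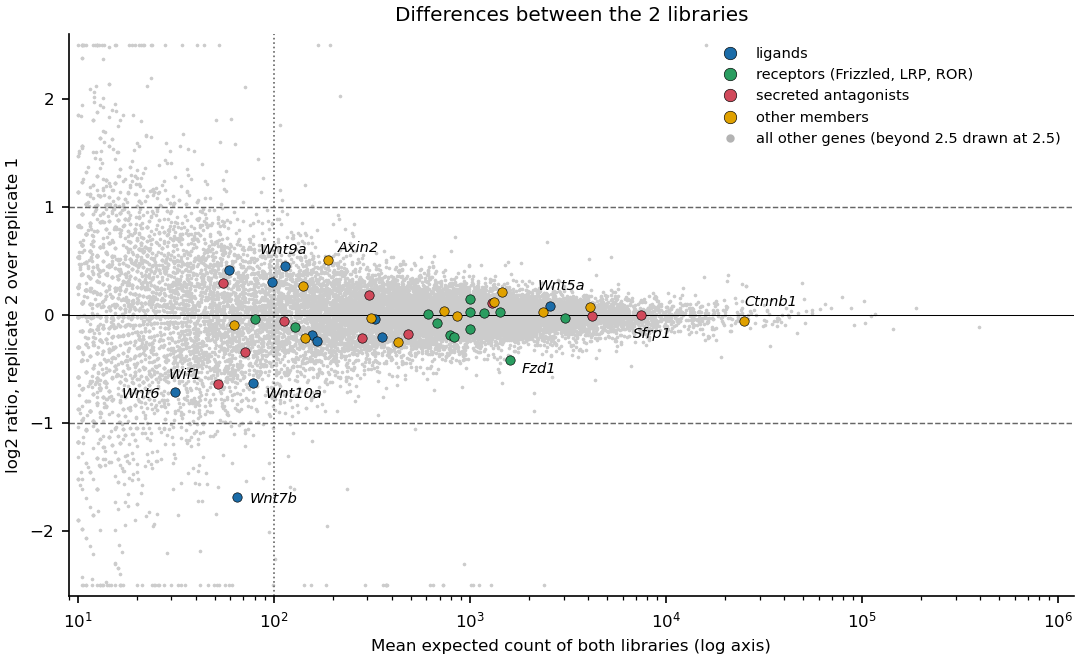
log2 ratio of replicate 2 over replicate 1 (TMM library sizes, 0.5 added to each count) against the mean expected count (log axis) for members (coloured by role) and all other genes (grey) whose mean count was at least 10; dashed lines mark 2-fold and the dotted line a mean count of 100. To the right of the dotted line every member lies between -0.42 (Fzd1) and 0.50 (Axin2), and Wnt7b lies below the lower dashed line on its left.

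Gene totals hide which transcripts were counted. Of the 45 detected members, 17 had 1 annotated transcript and 28 had more. For those 28, the most abundant transcript took a median of 74.1% of the gene, and it was the same transcript in both libraries for 22 and another for 6. In 36 detected members, transcripts annotated as protein coding made up 90% or more of the gene in both libraries, and in 5 they made up less than 90% in both. Those 5, named here after their values were seen, were Wnt11, Notum, Rnf43, Axin2 and Tcf7l2. Transcript types come from GENCODE M21, a later release than that of the counts, and the assignment of reads to overlapping transcripts is an estimate.

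The 5 cases changed what a gene total stands for. In Tcf7l2, with 22 transcripts, the retained-intron transcript Tcf7l2-206 was the most abundant by TPM, at 38.2% and 36.3% of the gene, on 648 and 675 of 3936 and 4213 counts. This transcript is 1041 bases long in the deposited table, a length that GENCODE M21 does not share. By counts the protein-coding Tcf7l2-209, of 3629 bases, led in both libraries, with 1532 and 1776. As a share of TPM, which favours short transcripts over counts, protein-coding transcripts of Tcf7l2 took 46.4% and 45.2%, or 49.6 and 49.8 TPM. That was still above the 26.1 and 27.7 TPM of protein-coding Tcf7l1. In Rnf43 the retained-intron transcript Rnf43-206 took 56.3% and 55.8%, and protein-coding transcripts came to 6.16 and 5.85 TPM. Coding Rnf43 therefore lay below coding Znrf3, at 13.1 and 14.5 TPM, whereas the gene totals had Rnf43 above Znrf3. In Wnt11, protein-coding transcripts took 31.1% and 20.9%, or 2.02 and 1.11 TPM. The ligand then lay below Wnt4, Wnt2b and Wnt16 in both libraries and overlapped with coding Wnt2, Wnt9a and Wnt10a. Coding Axin2 was at 2.29 and 3.22 TPM (76.3% and 63.3% of the gene) and coding Notum at 8.02 and 7.61 TPM. Counting coding transcripts alone left 44 members detected and a ligand sum of 57.2 and 54.8 TPM. The 1 member lost was Wif1, with 1.70 and 0.62 TPM of coding transcripts.

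**Figure D4:**
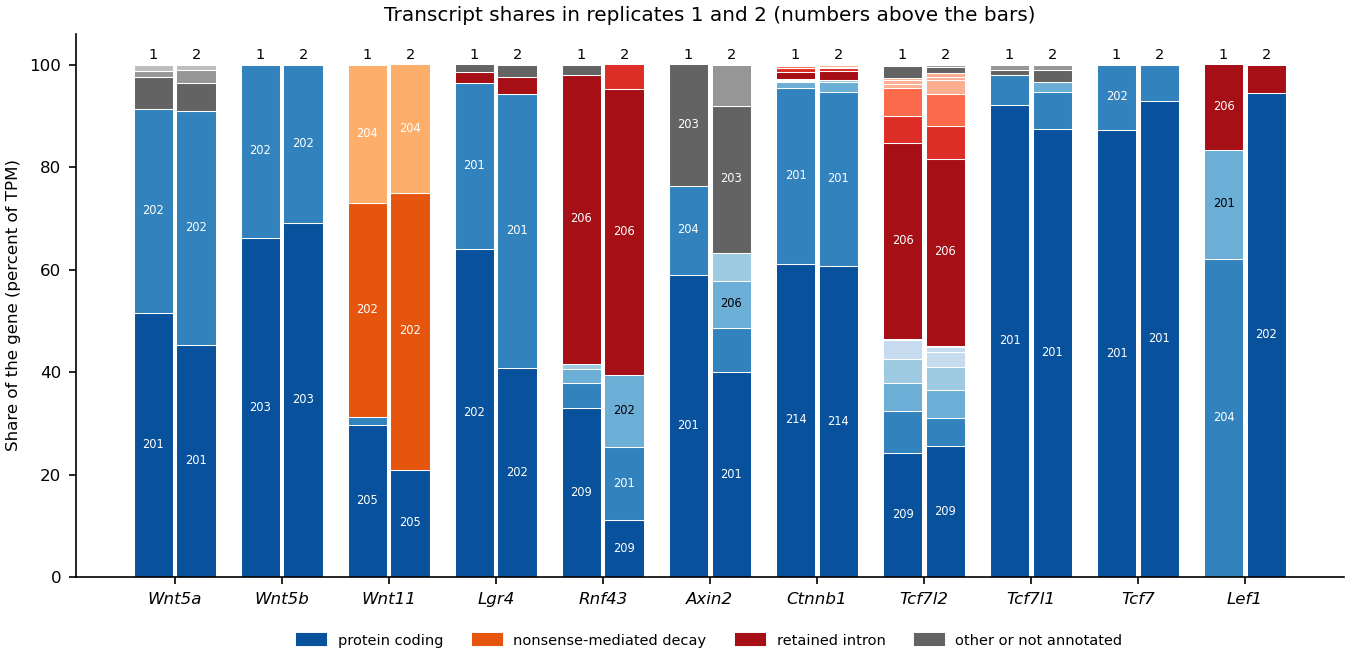
Share of each gene taken by its transcripts (percent of the gene's TPM) in replicate 1 (left bar) and replicate 2 (right bar) for 11 members; blue shades are protein-coding, orange nonsense-mediated decay, red retained-intron and grey other transcripts, and numbers inside segments are the ends of transcript names. By estimated share the leading transcript differs between the libraries for Wnt5a, Lgr4 and Lef1, while Ctnnb1, Tcf7l1 and Tcf7 keep theirs. In Wnt5a the top 2 are near equal in replicate 2 (45.2% and 45.8%), and in Lef1 the shift was not resolved.

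For Ctnnb1 the shares were steady, with Ctnnb1-214 at 61.2% and 60.7% and Ctnnb1-201 at 34.2% and 33.9%. Tcf7-201 took 87.2% and 92.8% of Tcf7, and Tcf7l1-201 took 92.0% and 87.4% of Tcf7l1. Sfrp2-201 took 99.7% and 98.2% of Sfrp2, and Fzd2 has 1 transcript. Wnt5a was shared by 2 coding transcripts: Wnt5a-201, with 380 codons and a first exon at 28504750, took 51.5% and 45.2%. Wnt5a-202, with 360 codons and a start at 28511405, took 39.9% and 45.8%. The codons are those of GENCODE M21, where Wnt5a-201 has another length than in the deposited table. Which of these 2 led by share therefore differed between the libraries, but in replicate 2 they were near equal. By counts Wnt5a-201 led in both libraries, with 1752 and 1729 against 699 and 900 for Wnt5a-202.

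Lgr4 had another leading transcript in each library by the estimated shares, and was singled out after its values were seen. Lgr4-202 had 1535 and 1027 counts (64.1% and 40.8% of the gene) and Lgr4-201 had 787 and 1365 (32.4% and 53.4%), while the gene total was 2332 and 2409. The 2 transcripts differ by 1 coding exon of 72 bases, exon 2 of the 18 exons of Lgr4-201, at chr2:109970692-109970763 on the plus strand. The exon adds 24 codons and keeps the reading frame. It lies in the part of the gene that encodes the outer domain of the receptor, which is built of leucine-rich repeats and binds R-spondins. Only reads that touch this exon or its junctions can separate the 2 transcripts, and how many did was not counted. All other reads of them were divided by the estimate, so these counts are largely shared reads. The authors' posterior mean put Lgr4-202 at 61.2% and 34.5% and Lgr4-201 at 34.5% and 59.0%. Lef1 is shown beside Lgr4 for a like exon, in a gene with few counts. Lef1-201 holds an 84-base coding exon (28 codons, exon 6, chr3:131191023-131191106, plus strand) that Lef1-202 lacks, and it took 21.4% in replicate 1 and 0% in replicate 2. Lef1-204 took the largest share in replicate 1 and Lef1-202 took 94.5% in replicate 2, but on 64 and 61 counts for the whole gene. The authors' posterior mean put Lef1-202 at 25.6% and 39.6%, so the shift was not resolved at this depth. Both exons are printed 5′ to 3′ from the GENCODE M21 transcripts, as the bases by which these transcripts differ.
Lgr4 exon 2: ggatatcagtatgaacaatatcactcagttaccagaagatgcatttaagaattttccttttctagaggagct
Lef1 exon 6: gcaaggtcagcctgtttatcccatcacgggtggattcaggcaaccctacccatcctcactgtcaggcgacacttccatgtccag

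For other members the alternative transcripts begin at separate start sites, and Wnt5b and Wnt11 show 2 such sites each. They were chosen after their values were seen, and their promoter windows are printed because the shares of transcripts differ between them. Windows come from RefSeq (GRCm38.p6) and run from 250 bases before to 50 bases after a start. A deposited transcript was put to a window when it began within 100 bases of that start. Wnt5b-203, from the upstream start (chr6:119544298-119544597, minus strand), took 66.2% and 69.1% of Wnt5b, and Wnt5b-202 (chr6:119467162-119467461) took 33.8% and 30.9%. The windows differ in base composition. The upstream one is 78.0% G and C with 47 CG dinucleotides, and the other is 53.0% G and C with 4. By posterior mean Wnt5b-203 took 38.4% and 44.9%, and with Wnt5b-204, which begins in the same window, the upstream start took 65.5% and 69.7%. In Wnt11 the first start (chr7:98834862-98835161, plus strand, 45 CG dinucleotides) took 43.4% and 54.0%, and the second (chr7:98838595-98838894, 23 CG dinucleotides) took 56.6% and 46.1%. Both Wnt11 starts gave transcripts annotated for nonsense-mediated decay, Wnt11-202 from the first and Wnt11-204 from the second. Capitals mark the letters CTTTGA on either strand, the core recognised by LEF and TCF factors.
Wnt5b-203 start: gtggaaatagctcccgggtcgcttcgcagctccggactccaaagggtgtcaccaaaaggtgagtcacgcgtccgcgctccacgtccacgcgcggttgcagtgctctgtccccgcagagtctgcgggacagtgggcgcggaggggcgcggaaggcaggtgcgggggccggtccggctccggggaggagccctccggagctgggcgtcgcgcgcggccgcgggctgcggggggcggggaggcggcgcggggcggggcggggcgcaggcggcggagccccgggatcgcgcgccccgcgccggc
Wnt5b-202 start: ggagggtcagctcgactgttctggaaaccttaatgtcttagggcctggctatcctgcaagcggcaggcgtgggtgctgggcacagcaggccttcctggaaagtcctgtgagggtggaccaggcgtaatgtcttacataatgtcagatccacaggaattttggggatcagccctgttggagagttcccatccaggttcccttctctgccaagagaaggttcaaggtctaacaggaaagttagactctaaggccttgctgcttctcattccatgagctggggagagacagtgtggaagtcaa
Wnt11 first start: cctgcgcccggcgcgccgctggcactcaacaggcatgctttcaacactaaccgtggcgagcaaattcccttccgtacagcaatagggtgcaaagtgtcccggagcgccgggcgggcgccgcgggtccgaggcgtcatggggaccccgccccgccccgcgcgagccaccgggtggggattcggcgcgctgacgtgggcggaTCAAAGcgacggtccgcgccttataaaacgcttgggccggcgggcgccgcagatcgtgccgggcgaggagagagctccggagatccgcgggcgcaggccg
Wnt11 second start: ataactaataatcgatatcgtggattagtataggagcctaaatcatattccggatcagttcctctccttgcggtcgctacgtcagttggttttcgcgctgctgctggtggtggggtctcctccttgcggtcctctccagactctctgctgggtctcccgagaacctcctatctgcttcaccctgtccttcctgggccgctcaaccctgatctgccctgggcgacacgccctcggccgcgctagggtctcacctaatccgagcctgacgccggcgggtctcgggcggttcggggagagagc

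Over the whole set, 39 members had at least 1 window in the RefSeq table, 49 windows in all. CTTTGA or its reverse complement TCAAAG stood in 7 of the 49 windows (14.3%), beside 16.0% of all 32851 windows of the same 300 bases. The 7 windows belong to Wnt5b, Wnt11, Fzd1, Ror1, Frzb, Dkk1 and Lef1. Of these 7, only the windows of Wnt11 and Ror1, 2 in all, were matched to a transcript with counts. The Wnt5b match is in another of its windows, whose transcript Wnt5b-201 had 0 counts, and in the other 4 no deposited transcript began within 100 bases of the RefSeq start. The window of Axin2 holds no match, and those of Dkk1 and Lef1 hold 2 matches each. The Dkk1 window (chr19:30549447-30549746, minus strand) is printed because its matches lie on opposite strands. The only deposited transcript of Dkk1 begins 169 bases upstream of the RefSeq start of this window, at 30549665, which is inside the window. The CTTTGA match lies downstream of that deposited start, and the TCAAAG match lies at it.
Dkk1 RefSeq window: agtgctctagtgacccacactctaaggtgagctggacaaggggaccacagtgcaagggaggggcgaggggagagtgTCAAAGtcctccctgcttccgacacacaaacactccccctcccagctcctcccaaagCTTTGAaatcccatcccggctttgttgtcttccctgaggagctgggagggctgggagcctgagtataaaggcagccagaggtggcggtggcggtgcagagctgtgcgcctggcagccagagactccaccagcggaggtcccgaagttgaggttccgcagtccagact

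A match of 6 letters describes the sequence and shows no binding. The members' windows had a median of 25 CG dinucleotides, beside 7 over all windows. The 16 members not matched in the table were Wnt5a, Wnt7b, Wnt10a, Fzd2, Fzd3, Fzd6, Fzd8, Lrp5, Lrp6, Sfrp1, Sfrp4, Dkk3, Notum, Rspo2, Rspo3 and Znrf3.

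Whether counting used strand is not given in the sources used here. If it did not, reads of a member and of a gene on the opposite strand were not told apart where their exons overlap. By GENCODE M21, 12 members share exon bases with another gene on the opposite strand. Notum had the largest such share, with 708 bases (29.4% of its exon bases) under Notumos, which was given 5.91 and 18.0 counts against 284 and 328 for Notum. The antisense gene under Sfrp2, Gm26771, was given 104 and 118 counts against 4202 and 4227. Ulk4, which overlaps Ctnnb1 by 759 bases, was given 211 and 210 counts against 25312 and 24706.

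Another 41 genes of the pathway, listed for their role, were measured in the same way. Of these, 40 were detected, beside 61.8% of protein-coding genes and 34.9% of all genes. Not detected was Kremen2, a Dickkopf receptor, at 0.53 and 0.33 TPM. The highest were Gpc3, a glypican that binds Wnt and hedgehog proteins (615 and 553 TPM), the kinase Csnk1a1, which starts the marking of beta-catenin for destruction (252 and 245 TPM), and Wls, which carries Wnt proteins to the cell surface (76.8 and 71.0 TPM). Of the 41, 40 had a mean count of 100 or more; 19 of them were higher in replicate 2 and 21 lower. Their median log2 ratio was -0.02, and 0 differed by over 2-fold, beside 0.298% of all genes at that count. Over 1.5-fold there were 2, both feedback targets of beta-catenin, beside 1.25% of all genes. Sp5 went from 80 to 130 counts (ratio 1.60, counting interval 1.20 to 2.14), the same direction as Axin2. Nkd2 went from 194 to 120 counts (ratio 0.609, interval 0.481 to 0.769), the opposite one. Both were named after their values were seen. The other listed feedback genes, Nkd1 (908 and 974 counts), Tnfrsf19 (1591 and 1493) and Dact1 (858 and 824), lay closer to no difference. The feedback genes of the list thus did not share a direction between the libraries.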

How the data were processed

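RNA sequencing measured gene and transcript levels in 2 libraries of 1 group. The authors deposited, for each library, a table of genes and one of transcripts on build mm10 with GENCODE M4, per the deposited notes. Which aligner, counting program and strand setting were used is not given in the sources used here. The deposited expected counts are estimated reads and not normalized, the deposited TPM values are shares of a total in which spike-ins count (12.1% and 14.2% of TPM), and the deposited percent values set each transcript against its gene. Numbered entries without a gene name, and phiX, took 6.17e-05% and 9.77e-05% of counts and stayed out.

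Symbols, positions and transcript types came from GENCODE M21 on the same assembly. Ratios used TMM library sizes (edgeR 4.0.16, R 4.3.3) with 0.5 added to each expected count. Counting intervals are exact 95% binomial (Clopper-Pearson) intervals of one library's share of both counts. Other tools were Python 3.11.15, pandas 2.3.3, scipy 1.17.1 and matplotlib 3.10.9. The ratio step was tested on simulated counts.

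Members, lists and the naming rule were chosen with earlier results of these data known. The rule names the 4 highest ligands, Frizzled receptors and antagonists, all of each smaller class, the 3 highest and 3 lowest ratios over members averaging at least 100 counts, the transcripts of the LEF and TCF factors, Ctnnb1 and the top ligand, Frizzled receptor and antagonist, and the 3 highest other pathway genes. Other items were named after their values were seen. Alternatives were DESeq2 1.42.0 size factors, spike-in scaling, TPM ratios, other filters and thresholds, posterior mean TPM, TPM without spike-ins, each library alone and, added after the data were seen, protein-coding transcripts only and the 1.5-fold count under each scaling.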

Additional observations from a re-analysis of the deposited data

How the results depend on the processing

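The number of members detected lay between 37 and 47 under the other thresholds, TPM columns and single libraries, and that of ligands between 7 and 11. Rescaling TPM without spike-ins gave 332 TPM for the antagonists and 73.5 TPM for the ligands (288 and 63.9 as reported), because spike-ins take part of the total, and protein-coding transcripts alone gave 56.0 TPM for the ligands. The count of members over 2-fold apart, 0 as reported, was 1 at a mean count of 10 or more (Wnt7b). With no filter it was 2, where Rspo4 adds 1 count against 0. Under the other scalings and by deposited TPM it was 0. The count over 1.5-fold, 0 as reported, was 1 with spike-in sizes (Fzd1) and 1 by deposited TPM (Axin2), and 0 with DESeq2 size factors. The median log2 ratio was -0.28 with spike-in sizes, a shift of -0.27 that all genes share. The median top transcript share was 68.3% by posterior mean, and 76.8% to 78.3% with 1 library left out. Transcript shares of 13 of 28 members moved by more than the spread between the libraries with the posterior mean. No paired analysis was possible because the labels give 1 group.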

Other observations

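Transcript shares of some further members differed between the libraries, and they are given here as values. Lrp5-201 took 74.1% of Lrp5 in replicate 1 and 52.7% in replicate 2, while Lrp5-203, annotated for nonsense-mediated decay, took 2.46% and 17.0%. For the receptor Ror2, Ror2-201 took 72.9% and 60.9% and Ror2-202 took 27.1% and 33.7%. Both transcripts of Fzd6 are protein coding, and Fzd6-202 took 79.6% and 68.2%. Wif1-201 took all of Wif1 in replicate 1 and 48.5% in replicate 2, where the retained-intron transcript Wif1-202 took the rest, on 63 and 41 counts for the gene. Wnt2-201 took 48.95% and 100% of Wnt2, and the other Wnt2 transcript is not in GENCODE M21. Rnf43-209, the leading coding transcript of Rnf43 in replicate 1, went from 346 to 124 counts, while Rnf43-202 went from 25.1 to 147 and Rnf43-201 from 44.5 to 135. By posterior mean Rnf43-202 took 12.51% and 12.53% of the gene, so its rise was not seen there. Rnf43-209 took 13.86% and 8.32% by that measure, and Rnf43-201 took 6.34% and 13.65%.

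The 11 planar polarity genes of the wider list, which act with Wnt5a and the Ror receptors, were all detected, beside 61.8% of protein-coding genes. Ptk7, a co-receptor in this branch, was at 33.9 and 27.5 TPM and Ryk, another Wnt receptor, at 23.65 and 21.03 TPM. Prickle1 was at 21.7 and 17.4 TPM, Vangl1 at 18.1 and 17.5 TPM and Vangl2 at 12.9 and 13.2 TPM. Celsr3 was the lowest of them, at 1.20 and 1.75 TPM.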
